A study of Homo sapiens with 9 samples.

Results

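The 10 genes described here encode proteins of epithelial tight junctions and desmosomes, together with EPCAM, an epithelial adhesion molecule that binds claudins. They comprise the claudins CLDN1, CLDN4 and CLDN7, the tight junction protein occludin (OCLN), EPCAM, the desmosomal cadherins desmocollin 2 (DSC2) and desmoglein 2 (DSG2), the plaque proteins plakoglobin (JUP) and plakophilin 3 (PKP3), and desmoplakin (DSP). The members are a list of gene symbols with no threshold on a measured value, set with earlier results of these data known. All 10 were present among the 27111 genes of the expression tables, and all 10 were among the 17108 genes with enough counts to be tested.

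The RNA came from PC-3, a human prostate cancer cell line derived from a bone metastasis, grown as multicellular tumor spheroids (MTSs) in medium with Matrigel. Cells had been stably transduced with lentiviral particles and selected with puromycin, so the Empty control line carries the same vector backbone as the lines over-expressing NF-YAl or NF-YAs, the long and short splice isoforms of the transcription factor subunit NF-YA. The transgenes were murine and all lines retained their endogenous human NFYA gene. Each library was made from a pool of MTSs, and each line had 3 libraries from independent experiments, labelled A, B and C for Empty and NF-YAs and A, B and D for NF-YAl. Each overexpression is represented by 1 transduced line, so a difference between lines cannot be told apart from the effect of the isoform.

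Claudins and occludin are membrane-spanning proteins that form the strands of tight junctions, which close the space between neighbouring epithelial cells. In desmosomes, the extracellular parts of desmocollins and desmogleins join cells, while their tails bind plakoglobin and plakophilins, and desmoplakin links this plaque to keratin filaments. NF-Y is a trimeric factor, with NF-YA as the subunit that contacts DNA, and binds the CCAAT box of promoters, and the 2 isoforms of NF-YA share the DNA-binding part and differ in the transactivation domain.

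Total expected counts were 18076979 to 27163976 per library. NFYA itself was measured in CPM, the counts scaled to library size with TMM factors, and had 89.2 to 96.7 CPM in the Empty libraries. It had 287 to 383 CPM with NF-YAl and 254 to 264 CPM with NF-YAs, without overlap between any of the lines, although reads were counted on human transcripts and the murine and human copies were not told apart. The epithelial keratins KRT8, KRT18 and KRT19 were present in every library, and their summed level was 1163 to 1287 CPM for Empty, 731 to 745 CPM for NF-YAl and 723 to 827 CPM for NF-YAs. The prostate marker KLK3 was at 0 in all 9 libraries. The erythroid genes HBA1 and HBB were at 0 throughout, and the 4 leukocyte markers together did not exceed 1.81 CPM. Of the 2 endothelial markers, PECAM1 reached 7.32 CPM and CDH5 stayed at or below 0.433 CPM, and the 2 fibroblast markers together stayed at or below 0.592 CPM. The keratin and PECAM1 levels moved with the lines, and their part in the values of the 10 genes was not tested. The NF-YAl libraries were spread on the third principal component, which held 9.36% of the variance, with D at -47.5, A at 30.9 and B at 2.06. On the second, with 26.45% of the variance, NF-YAl A was at -59.0 against -35.9 for B and -31.9 for D. Small 7SL and 7SK RNAs took 13.0% of the TPM (transcript levels scaled for length and to a fixed total) of NF-YAl D. They took 26.7 to 40.5% in the other 8 libraries, so unscaled TPM of other genes are raised in NF-YAl D. In bulk RNA of this kind, fewer cells that express a gene and less RNA per cell cannot be told apart.

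Promoter sequence is shown for 5 of the genes because NF-Y binds the CCAAT box and because 2 of these genes fell in at least 1 line with such a box, 1 carried a box without passing the test, and 2 changed strongly in NF-YAl without one. The sequences are the 250 bases before annotated RefSeq starts on GRCh38.p14, written 5′ to 3′ on the strand of the gene, and capitals mark CCAAT or its reverse complement ATTGG. The windows are CLDN7 at chr17:7263214-7263463 on the minus strand, JUP at chr17:41786712-41786961 on the minus strand, OCLN at chr5:69492297-69492546 on the plus strand, CLDN1 at chr3:190322447-190322696 on the minus strand and DSP at chr6:7541421-7541670 on the plus strand.
CLDN7: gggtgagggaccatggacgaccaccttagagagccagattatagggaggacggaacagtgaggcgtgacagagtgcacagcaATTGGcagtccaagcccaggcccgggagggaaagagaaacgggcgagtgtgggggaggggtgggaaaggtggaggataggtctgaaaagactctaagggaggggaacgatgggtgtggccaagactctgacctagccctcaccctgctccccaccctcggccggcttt
JUP: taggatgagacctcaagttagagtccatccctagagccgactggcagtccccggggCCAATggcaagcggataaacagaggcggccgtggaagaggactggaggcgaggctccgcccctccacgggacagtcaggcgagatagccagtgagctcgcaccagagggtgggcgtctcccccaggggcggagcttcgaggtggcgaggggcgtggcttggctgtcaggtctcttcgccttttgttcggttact
OCLN: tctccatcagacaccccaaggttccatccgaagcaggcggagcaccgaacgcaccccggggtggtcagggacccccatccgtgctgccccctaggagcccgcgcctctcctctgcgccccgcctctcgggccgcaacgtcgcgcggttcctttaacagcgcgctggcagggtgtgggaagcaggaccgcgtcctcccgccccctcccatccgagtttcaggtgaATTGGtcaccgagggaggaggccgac
CLDN1: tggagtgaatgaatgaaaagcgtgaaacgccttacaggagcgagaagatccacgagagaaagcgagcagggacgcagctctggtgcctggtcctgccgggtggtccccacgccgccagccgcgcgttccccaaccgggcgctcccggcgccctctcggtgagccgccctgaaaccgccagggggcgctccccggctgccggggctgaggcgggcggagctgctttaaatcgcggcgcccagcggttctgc
DSP: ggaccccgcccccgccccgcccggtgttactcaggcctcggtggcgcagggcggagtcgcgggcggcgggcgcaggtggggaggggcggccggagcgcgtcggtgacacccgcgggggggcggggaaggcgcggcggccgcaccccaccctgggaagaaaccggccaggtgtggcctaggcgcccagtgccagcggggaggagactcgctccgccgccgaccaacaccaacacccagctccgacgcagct

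The word CCAAT was searched on both strands in windows of 300 bases, 250 before and 50 after each start. RefSeq gave 12 such windows for 8 of the 10 genes, and none was given for EPCAM and PKP3. A match was found in 3 windows, starting at position -168 from the start in CLDN7, -194 in JUP and -26 in OCLN, each gene also having a second window without one. Among all 35116 promoter windows, 34.6% held the word, against 25.0% of the 12 windows of these genes. The match is a description of the letters and not evidence of binding, and the genes with windows but no match were CLDN1, CLDN4, DSC2, DSG2 and DSP.

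To ask how the isoforms affected junction genes, each overexpressing line was compared with Empty and the lines were then compared directly, with the quasi-likelihood F test of edgeR and p-values adjusted by Benjamini-Hochberg over all tested genes. A gene is said to have risen or fallen where its adjusted p was under 0.01. In NF-YAl MTSs, CLDN1 and EPCAM rose while CLDN4, JUP, PKP3 and DSP fell. The 2 genes that rose stand beside 10% of all tested genes that rose, and the 4 that fell beside 9.54% that fell. In NF-YAs MTSs, EPCAM rose and CLDN4, CLDN7, DSC2 and JUP fell, beside 12.1% of all genes that rose and 10.5% that fell. When an absolute log2 fold change (log2FC) above 1 was also required, 4 of the 10 passed in each line, CLDN1, CLDN4, EPCAM and DSP in NF-YAl and CLDN4, CLDN7, EPCAM and DSC2 in NF-YAs, beside 8.27% and 9.34% of all genes. The median log2FC of the 10 genes was -0.19 in NF-YAl and -0.67 in NF-YAs, where that of all tested genes was 0.01 and -0.00262. Both contrasts use the same 3 Empty libraries, so the values are given side by side and no agreement between them is counted.

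**Figure D1:**
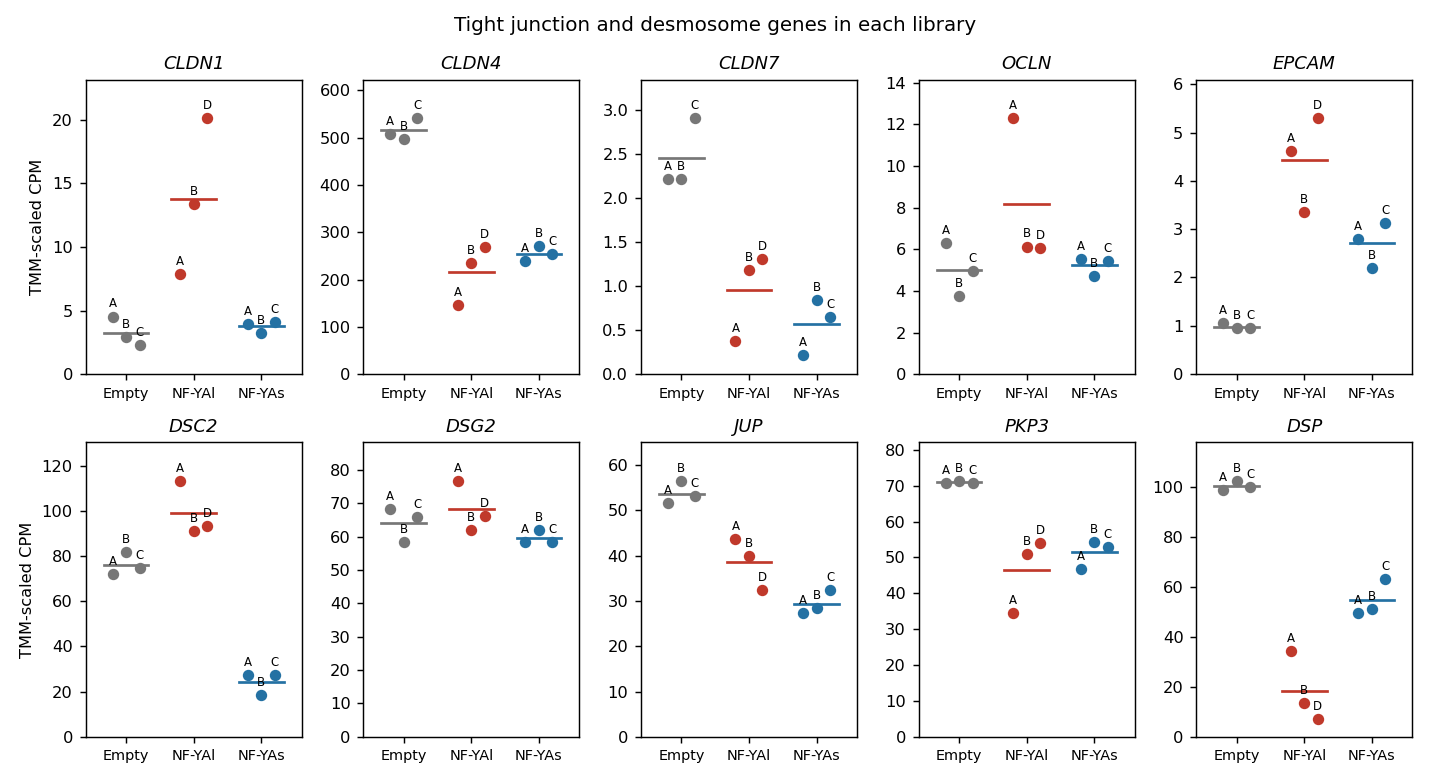
TMM-scaled CPM (vertical axes, each starting at 0) of the 10 genes in the 9 libraries, with 1 point a library marked by its letter and a bar at the mean of each line. DSC2 is lowest in the 3 NF-YAs libraries, at 18.5 to 27.5 CPM, and DSP in the 3 NF-YAl libraries, at 7.27 to 34.4 CPM, whereas the lines overlap for DSG2.

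**Figure D2:**
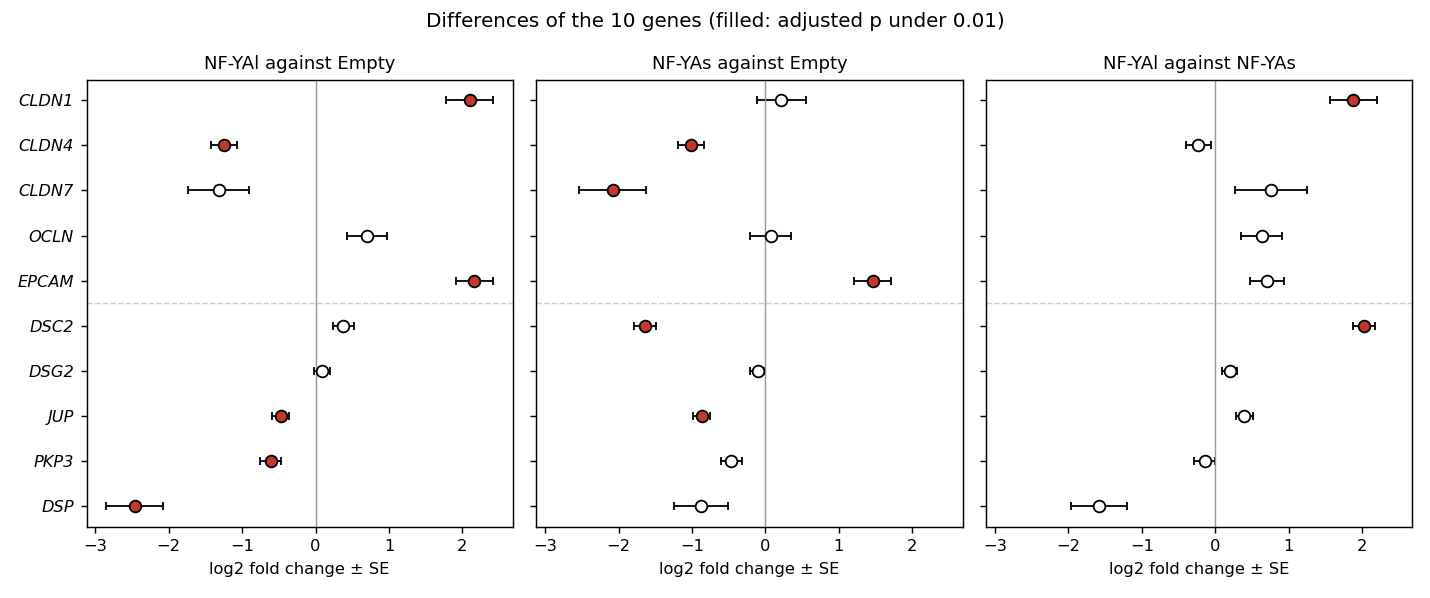
Log2 fold changes of the 10 genes with their standard errors (horizontal bars) in the 3 comparisons, from the edgeR fit. Filled points passed an adjusted p of 0.01, and the dashed line separates tight junction genes and EPCAM above from desmosome genes below.

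CLDN1 encodes a claudin that tightens the barrier and lies on chromosome 3 from 190023496 to 190040235 on the minus strand (GRCh37, as are the gene positions that follow). Empty A, B and C had 4.53, 2.90 and 2.28 CPM. NF-YAl A, B and D had 7.90, 13.4 and 20.1 CPM, and NF-YAs A, B and C had 3.93, 3.23 and 4.10 CPM. All NF-YAl libraries were above all others, and they differed among themselves by 2.55-fold. CLDN1 rose 4.28-fold in NF-YAl, a log2FC of 2.10 ± 0.32 (SE, n = 3 per line, edgeR adjusted p = 0.00041). Without NF-YAl D the log2FC was 1.73. In NF-YAs its log2FC was 0.22 ± 0.34, with an interval of 2 SE from -0.46 to 0.89 (edgeR adjusted p = 0.653). The 100 nearest tested genes, 50 on each side of CLDN1, had median log2FC values of 0.49 with NF-YAl and 0.10 with NF-YAs, and the part of the region in the change of CLDN1 was not tested.

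CLDN4, the most abundant of the 10 transcripts, encodes a barrier-forming claudin and spans 73213872 to 73247020 on the plus strand of chromosome 7. Empty A, B and C had 507, 498 and 541 CPM, NF-YAl A, B and D had 146, 236 and 269, and NF-YAs A, B and C had 239, 272 and 253. Every library of both overexpressing lines was below every Empty library. The fall was 2.37-fold in NF-YAl (log2FC -1.25 ± 0.18, edgeR adjusted p = 0.000227) and 2.02-fold in NF-YAs (log2FC -1.02 ± 0.17, edgeR adjusted p = 0.000768). On unscaled TPM, with limma on log2(TPM + 1), neither difference passed, with log2FC of -0.99 in NF-YAl and -0.84 in NF-YAs and adjusted p of up to 0.109 over the pseudocounts of 1 and 0.1. On TMM-scaled TPM both passed with limma, with log2FC of -1.29 (adjusted p = 0.000617) and -1.02 (adjusted p = 0.00206). On the unscaled TPM, NF-YAl D had 317 TPM of CLDN4 against 108 and 149 in NF-YAl A and B.

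CLDN7 encodes a claudin of many simple epithelia and was near the lower end of what these libraries measure. It lies on the minus strand of chromosome 17 from 7163222 to 7167302 and overlaps ELP5 on the plus strand, and the use of strand in the counting is not given in the sources used here, so reads of the 2 genes may be mixed. The Empty libraries held 53, 56 and 74 expected counts of CLDN7, those of NF-YAl 7, 29 and 32, and those of NF-YAs 4, 17 and 14. Scaled to CPM, these gave 2.22, 2.23 and 2.91 for Empty, 0.371, 1.19 and 1.31 CPM for NF-YAl, and 0.215, 0.846 and 0.645 CPM for NF-YAs, so the Empty libraries did not overlap either line. CLDN7 fell 4.23-fold in NF-YAs (log2FC -2.08 ± 0.45, edgeR adjusted p = 0.00355), and this call was lost when Empty C, NF-YAs A or NF-YAs C was left out, with adjusted p of up to 0.0175. In NF-YAl the log2FC was -1.32 ± 0.42 and did not pass (edgeR adjusted p = 0.0291).

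OCLN encodes occludin and spans 68788119 to 68853931 on the plus strand of chromosome 5. The Empty libraries A, B and C had 6.29, 3.74 and 4.96 CPM, the NF-YAl libraries A, B and D 12.3, 6.13 and 6.08, and the NF-YAs libraries A, B and C 5.55, 4.73 and 5.44. NF-YAl A was higher than all other libraries, and the remaining NF-YAl libraries lay within the range of Empty. Neither contrast passed, with log2FC of 0.70 ± 0.28 in NF-YAl (edgeR adjusted p = 0.0721) and 0.07 ± 0.28 in NF-YAs (edgeR adjusted p = 0.872). Without NF-YAl A the NF-YAl value was 0.29.

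EPCAM encodes an epithelial cell adhesion molecule that binds and stabilises claudins, CLDN7 in particular, and spans 47572297 to 47614740 on the plus strand of chromosome 2. It was measured at 1.05, 0.954 and 0.945 CPM for Empty A, B and C, 4.61, 3.35 and 5.30 CPM for NF-YAl A, B and D, and 2.80, 2.19 and 3.13 CPM for NF-YAs A, B and C. The lines did not overlap each other, and the counts behind these values were 24 to 25 in Empty and 44 to 129 in the other lines. EPCAM rose 4.48-fold in NF-YAl (log2FC 2.16 ± 0.25, edgeR adjusted p = 5.49e-05) and 2.75-fold in NF-YAs (log2FC 1.46 ± 0.26, edgeR adjusted p = 0.000878). EPCAM is the only one of the 10 genes that rose in both lines, and both rises are measured against the same Empty libraries.

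Of the desmosomal cadherins, DSC2 lies on the minus strand of chromosome 18 from 28638806 to 28682485. Levels were 71.9, 81.8 and 74.5 CPM with the empty vector, 113, 91.1 and 93.0 CPM with NF-YAl and 27.1, 18.5 and 27.5 CPM with NF-YAs, in the order of the letters. The 3 lines did not overlap, with NF-YAl highest and NF-YAs lowest. DSC2 fell 3.12-fold in NF-YAs (log2FC -1.64 ± 0.15, edgeR adjusted p = 8.98e-06). In NF-YAl the log2FC of 0.38 ± 0.14 did not pass (edgeR adjusted p = 0.0598).

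DSG2, the desmoglein of simple epithelia, lies in the same cluster of desmosomal cadherin genes, from 29078140 to 29128971 on the plus strand. The Empty libraries A, B and C had 68.4, 58.4 and 65.8 CPM, the NF-YAl libraries A, B and D 76.8, 61.9 and 66.2, and the NF-YAs libraries A, B and C 58.4, 62.0 and 58.4. The lines overlapped, and the log2FC was 0.09 in NF-YAl (2 SE interval -0.12 to 0.29, edgeR adjusted p = 0.558) and -0.11 in NF-YAs (-0.31 to 0.10, edgeR adjusted p = 0.459). DSC3, another cadherin gene of the cluster, had log2FC of 0.30 ± 0.12 in NF-YAl, which did not pass, and fell in NF-YAs with a log2FC of -0.60 ± 0.12 (edgeR adjusted p = 0.00171). The 100 tested genes nearest to DSC2 had median log2FC values of -0.48 with NF-YAs and -0.13 with NF-YAl, and the part of the region in the fall of DSC2 was not tested.

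JUP encodes plakoglobin, a catenin found in both desmosomes and adherens junctions, on the minus strand of chromosome 17 from 39910856 to 39943183. It was measured at 51.5, 56.5 and 53.1 CPM for Empty A, B and C, 43.7, 39.8 and 32.4 CPM for NF-YAl A, B and D, and 27.3, 28.4 and 32.4 CPM for NF-YAs A, B and C. Both lines were below Empty in every library. JUP fell 1.83-fold in NF-YAs (log2FC -0.87 ± 0.12, edgeR adjusted p = 0.000158) and 1.39-fold in NF-YAl (log2FC -0.48 ± 0.12, edgeR adjusted p = 0.00879). The NF-YAl call was lost when any 1 of the 9 libraries other than NF-YAl A was left out, with adjusted p of up to 0.0395.

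PKP3 encodes plakophilin 3, which binds desmosomal cadherins and desmoplakin, on the plus strand of chromosome 11 from 392614 to 404908. Levels were 70.7, 71.4 and 70.7 CPM with the empty vector, 34.4, 50.8 and 54.1 CPM with NF-YAl and 46.9, 54.4 and 52.8 CPM with NF-YAs, in the order of the letters. All 6 libraries of the overexpressing lines were below Empty. In NF-YAl the gene fell 1.52-fold (log2FC -0.61 ± 0.14, edgeR adjusted p = 0.00632), a call lost without any 1 of the Empty libraries, NF-YAl B, NF-YAs B or NF-YAs C, with adjusted p of up to 0.0237. In NF-YAs the log2FC was -0.46 ± 0.14 (edgeR adjusted p = 0.0237), and it passed without NF-YAl A or NF-YAl D, at 0.00791 without the latter. PKP3 also passed in NF-YAs when only the NF-YAs and Empty libraries were fitted.

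DSP encodes desmoplakin and spans 7541571 to 7586947 on the plus strand of chromosome 6. The Empty libraries A, B and C had 98.9, 102 and 100.05 CPM, the NF-YAl libraries A, B and D 34.4, 13.5 and 7.27, and the NF-YAs libraries A, B and C 49.4, 51.2 and 63.4. The Empty libraries differed by no more than 1.04-fold, whereas the NF-YAl libraries differed by 4.73-fold, and the 3 lines did not overlap. DSP fell 5.52-fold in NF-YAl (log2FC -2.46 ± 0.39, edgeR adjusted p = 0.000496), with a log2FC of -2.08 without NF-YAl D and -3.27 without NF-YAl A. In NF-YAs the log2FC was -0.88 ± 0.37 and did not pass (edgeR adjusted p = 0.0814). The same comparison passed without NF-YAl A or NF-YAl D, libraries of neither line compared, at an adjusted p of 0.000707 without the former and 0.00736 without the latter. DSP also passed in NF-YAs when only the NF-YAs and Empty libraries were fitted.

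Not overlapping between lines was a common property in these data. The libraries of NF-YAl and Empty did not overlap for 8 of the 10 genes, beside 42.4% of all tested genes, and those of NF-YAs and Empty for 7, beside 56.4%.

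NF-YAl and NF-YAs MTSs were compared directly to find where the isoforms differed. DSC2 and CLDN1 were higher in NF-YAl, beside 4.7% of all tested genes that were higher, and both also had an absolute log2FC above 1, beside 4.61% of all genes in either direction. The difference was 4.06-fold for DSC2 (log2FC 2.02 ± 0.15, edgeR adjusted p = 1.24e-05) and 3.68-fold for CLDN1 (log2FC 1.88 ± 0.32, edgeR adjusted p = 0.00168). The CLDN1 call was lost without NF-YAs B (adjusted p = 0.0121, log2FC 1.78), and that of DSC2 held when each of the 9 libraries was left out, with log2FC between 1.86 and 2.12. By edgeR, 0 of the 10 genes were lower in NF-YAl at the adjusted limit, beside 6.25% of all tested genes. DESeq2 also gave 0, and at an unadjusted p under 0.05 there was 1, DSP. DSP had a log2FC of -1.59 ± 0.38 (edgeR adjusted p = 0.0115), with non-overlapping libraries, and it passed without NF-YAl A or NF-YAl D, at 0.00583 without the latter.

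For the other members the isoforms could not be told apart at this limit. EPCAM had a log2FC of 0.70 ± 0.23 (edgeR adjusted p = 0.0441) and JUP of 0.39 ± 0.12 (edgeR adjusted p = 0.033), both with non-overlapping libraries, and JUP passed without NF-YAl D, at 0.00324. CLDN4 had a 2 SE interval from -0.58 to 0.12, CLDN7 from -0.21 to 1.74, PKP3 from -0.43 to 0.14 and DSG2 from -0.01 to 0.40. OCLN did not overlap and had a log2FC of 0.63 ± 0.28 (edgeR adjusted p = 0.122). In all, 6 of the 10 genes had non-overlapping libraries, beside 39.5% of all tested genes.

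Levels of different genes were ordered by TPM, which corrects for transcript length. CLDN4 led in all 3 lines, with means of 345 ± 53.1 TPM for Empty, 191 ± 110 TPM for NF-YAl and 191 ± 13.5 TPM for NF-YAs (SD, n = 3). In Empty, PKP3 followed at 29.7 ± 4.84 TPM without overlap with its neighbours. JUP, DSC2, DSG2 and DSP came next at 19.0, 16.8, 12.7 and 12.2 TPM. Their ranges over the libraries overlapped from each gene to the next. Within every Empty library, however, JUP was above DSC2 and DSC2 above DSG2, while the order of DSG2 and DSP varied. The remaining CLDN7, CLDN1, OCLN and EPCAM had means of 1.91 to 0.713 TPM, and their ranges also overlapped in sequence. CLDN7 was above CLDN1 and OCLN above EPCAM within every Empty library, while the order of CLDN1 and OCLN varied. In NF-YAl, DSP stood eighth at 2.55 ± 1.79 TPM and overlapped EPCAM above it and OCLN below it, while DSC2 at a mean of 27.7 ± 8.65 TPM overlapped PKP3. Within the libraries, PKP3 was above DSC2 in NF-YAl B and D and below it in NF-YAl A, so these 2 genes have no fixed order there. In NF-YAs, DSP at 7.39 ± 0.57 TPM overlapped DSC2 at 6.06 ± 1.46, and CLDN7 was lowest at 0.46 ± 0.27. Together the 10 genes took 0.0813 to 0.0866% of the expected counts of an Empty library, 0.0494 to 0.0597% of an NF-YAl library and 0.0473 to 0.0505% of an NF-YAs library.

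The deposited tables also split each gene over its RefSeq transcripts. Of the members, 5 had more than 1 transcript with a share of at least 5% of the gene's TPM, CLDN7, OCLN, DSC2, JUP and DSP. Shares did not overlap between lines in 5 of 36 comparisons of transcripts, all in OCLN and CLDN7, the latter at 4 to 74 counts of the gene per library. How often the shares of other genes' transcripts did not overlap was not computed, so this count sets no member apart. With 3 libraries against 3, a two-sided exact permutation test cannot go below 0.1, so no share could pass.

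OCLN had 94.5 to 232 expected counts per library. Its 5391 nt transcript took 70.2, 57.9 and 45.5% of OCLN for Empty A, B and C, 19.0, 30.7 and 38.6% for NF-YAl A, B and D, and 23.4, 45.3 and 51.8% for NF-YAs A, B and C. The 6438 nt transcript was estimated at 0 in the 3 Empty libraries and took 28.6, 11.9 and 23.8% for the NF-YAl libraries, with 11.4, 0 and 6.18% for the NF-YAs libraries. The remaining 6208 nt transcript took 29.8 to 54.5% for Empty, 37.65 to 57.4% for NF-YAl and 41.99 to 65.1% for NF-YAs, with overlap between all lines, and had the largest mean share in both overexpressing lines. NF-YAl lay below Empty for the 5391 nt transcript and above it for the 6438 nt transcript, by 28.4 and 21.4 percentage points (two-sided exact permutation p = 0.1 for each, the smallest possible). RSEM assigned these reads among transcripts that share most of their sequence, so an estimate of 0 does not show absence.

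DSC2 has transcripts of 5254 and 5208 nt, whose difference of 46 nt is that of the alternative exon that separates the b and a forms of desmocollin tails. The longer one took 57.3, 50.3 and 38.3% for Empty A, B and C, 38.3, 39.5 and 42.3% for NF-YAl A, B and D, and 26.0, 18.6 and 55.8% for NF-YAs A, B and C. The lines overlapped, and NF-YAs C differed more from NF-YAs A and B than the lines did from each other, so no difference in the form of DSC2 was detectable.

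DSP was divided between the 9796 nt transcript of desmoplakin I and the 7999 nt transcript of desmoplakin II, which has a shorter rod. Desmoplakin I took 75.9 to 79.3% of DSP in 8 of the 9 libraries. In NF-YAl D it was assigned all 177 counts of the gene. The proportion of the 2 forms therefore varied by few percentage points in the libraries other than NF-YAl D, over gene levels from 13.5 to 102 CPM.

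Other genes of the same junctions were taken from lists written from general knowledge. Of 51 other tight junction genes, 41 were tested. In NF-YAl, 9 rose and 3 fell, where 10% of all tested genes rose and 9.54% fell, and the median log2FC of the list was 0.28 against 0.01 for all genes. CXADR, a junctional adhesion receptor, had the largest rise, with a log2FC of 2.02 ± 0.26 and 8.77 CPM on average in Empty against 35.7 in NF-YAl. The claudin CLDN11, the cingulin paralog CGNL1 and LSR, a receptor of tricellular junctions, rose with log2FC of 1.77, 1.60 and 1.42. The 3 that fell were CLDN2 (log2FC -0.94), CLDN14 (log2FC -0.64) and the polarity gene PARD6A (log2FC -0.87).

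In NF-YAs, 9 of the 41 rose and 2 fell, where 12.1% of all tested genes rose and 10.5% fell, and the median log2FC of the list was 0.09. CLDN11 and CGNL1 rose most, with log2FC of 2.63 ± 0.22 and 2.38 ± 0.20, followed by CXADR at 1.69 and the angiomotin gene AMOT at 1.62. The 2 that fell were CLDN3 (log2FC -0.65) and PARD6A (log2FC -1.20). PARD6A thus fell in both lines, and AMOT also rose in NF-YAl (log2FC 1.31). In the direct comparison, the 5 genes that passed were all higher in NF-YAl, where 4.7% of all tested genes were higher and 6.25% lower. They were led by LSR with a log2FC of 1.67 ± 0.21, CLDN3 at 0.81, PATJ at 0.70 and PARD6G at 0.58. LSR had 4.91 to 7.05 CPM in NF-YAl, 1.69 to 1.84 in NF-YAs and 2.10 to 2.16 in Empty.

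**Figure D3:**
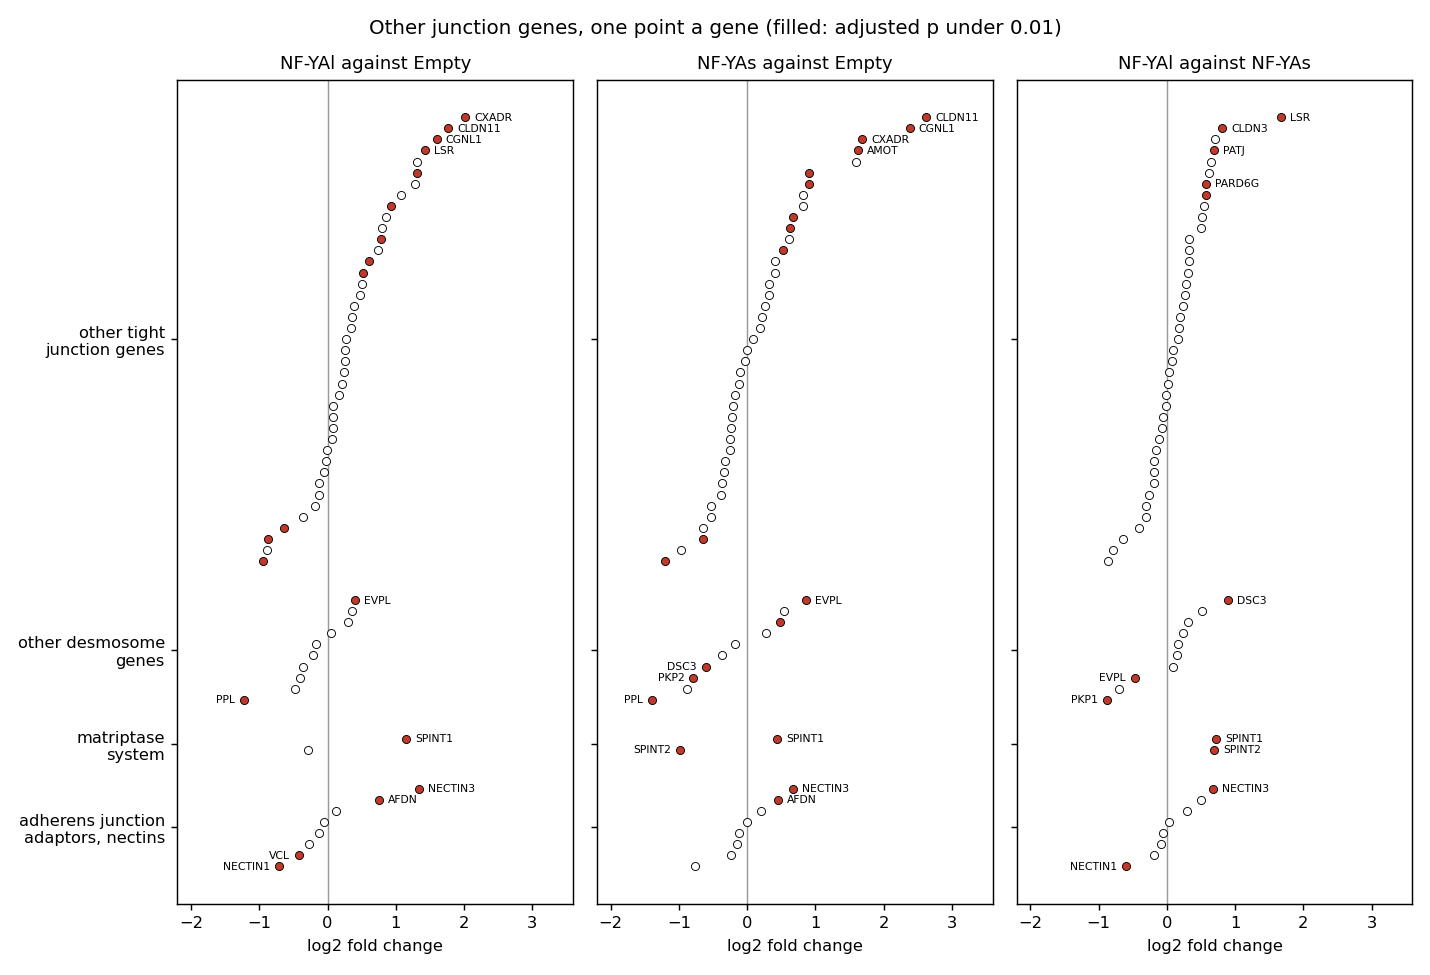
Log2 fold changes (horizontal axis) of the tested genes of 4 lists, 1 point a gene and ordered by value within each list, in the 3 comparisons. Filled points passed an adjusted p of 0.01, and in the tight junction list 9 of 41 genes rose and 3 fell in NF-YAl, and 9 rose and 2 fell in NF-YAs.

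Of 13 other desmosome genes, 10 were tested, and their median log2FC was -0.19 in NF-YAl and -0.27 in NF-YAs. The plakin gene PPL fell in both lines, with log2FC of -1.22 ± 0.14 and -1.39 ± 0.14 and means of 96.1 CPM for Empty, 41.2 CPM for NF-YAl and 36.7 CPM for NF-YAs. EVPL, which encodes envoplakin, the partner of the PPL product periplakin, rose in both, with log2FC of 0.40 ± 0.10 and 0.87 ± 0.10. In NF-YAs the plakophilin gene PKP2 also fell (log2FC -0.79 ± 0.17) together with DSC3, and PKP1, the second gene that rose, had a mean of 530 CPM against 381 in Empty. PKP1 was lower in NF-YAl than in NF-YAs, with a log2FC of -0.87 ± 0.12, and DSC3 was higher, with 0.90 ± 0.12. In NF-YAs, PKP1 thus rose and PKP2 fell. PKP3 (log2FC -0.46, edgeR adjusted p = 0.0237) and PKP4 (log2FC -0.37, edgeR adjusted p = 0.0158) were below Empty in every NF-YAs library but did not pass.

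Of 4 genes of the matriptase system, whose protease cleaves EPCAM, 2 were tested. The matriptase gene ST14 itself had too few counts to be tested, at most 8 in any library, as had PRSS8, at most 10. The matriptase inhibitor gene SPINT1 rose in both lines, with log2FC of 1.16 and 0.44. The related inhibitor gene SPINT2 fell in NF-YAs (log2FC -0.99 ± 0.11) and had a log2FC of -0.29 in NF-YAl, which did not pass (edgeR adjusted p = 0.0541).

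The genes whose levels ran most like each member over the 9 libraries were taken from 15149 genes with a mean of at least 1 CPM, by Pearson's r of log2 CPM. Since the libraries form 3 lines, such likeness mostly reflects the line means, and it is given as a description. BMPR1A, TSPYL5 and LOXL1-AS1 were most like DSC2 (r of 0.996, 0.992 and 0.989), and TMEM67, PKIA and PTGFR most like EPCAM (0.988, 0.986 and 0.983). For DSP they were MAGEA6, APOL6 and MTMR11 (0.975, 0.974 and 0.973), for CLDN4 AARS, HK2 and DDX19A (0.990, 0.990 and 0.989), and for CLDN1 FANCF, TMEM218 and CTSC (0.973, 0.972 and 0.957). For DSG2, whose lines overlapped, the nearest gene was C9orf66 at 0.961. None of the 10 members was among the 3 genes most like another member.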

How the data were processed

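RNA-seq was made from MTSs of 3 PC-3 lines, 3 libraries each, with stranded total RNA libraries. Per the labels and the paper's methods, the authors aligned reads to human RefSeq transcripts of GRCh37 (hg19) with bowtie2 within RSEM. The authors deposited, for each gene and transcript, expected counts, which are RSEM's estimates of reads shared among transcripts and are not normalized, and TPM, corrected for effective length and scaled to a fixed total by the authors' software. The authors' transcript tables further give each transcript's share, in percent, of the TPM of its gene. Small structured RNAs entered that total in unequal shares, which affects unscaled TPM. Filters on reads and the use of strand in counting are not given in the sources used here. Library groups and letters were taken from the sample labels.

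Gene-level expected counts were rounded to whole numbers. The test was that of edgeR 4.0.16 (R 4.3.3), using filterByExpr, TMM scaling and quasi-likelihood F tests on the 9 libraries fitted together, with Benjamini-Hochberg adjustment over 17108 genes. Standard errors were |log2FC| over the square root of F. CPM were TMM-scaled. The p-values measure the spread between 3 experiments with 1 line each. The replicate letter was not used as a block in the tests reported. Gene positions came from GENCODE annotation of GRCh37 and promoters from RefSeq on GRCh38.p14, which were not converted into each other. The procedure was tested on simulated counts.

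The 10 members, the gene lists and the markers were chosen with earlier results of these data known. Named besides the members were up to 4 genes per list and comparison with the largest |log2FC| among those that passed with at least 1 CPM in the higher line, the 3 genes most like a member, NFYA and the markers. Genes that complete a small count were named in addition. Some listed genes and markers are not reported here and were left out of the counts over lists. PARD6A, PKP1 and PKP4 in NF-YAs, and CTNNA1 were named after their values were seen. Alternatives were DESeq2 1.42.0, relative log expression scaling, other filters, a fit of only 2 lines, a block for the replicate letter, an effective length offset, limma 3.58.1 on log2(TPM + 1) and log2(TPM + 0.1), a looser limit of 0.05 on the adjusted p, and each library left out in turn. A limma fit on TMM-scaled TPM was added after seeing the data. Figures used matplotlib 3.10.9.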

Additional observations from a re-analysis of the deposited data

Results flagged for a closer look

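CLDN1 and DSC2 are singled out because their effects over Empty differed between the isoforms by a test of the difference itself, the direct comparison of the lines. The log2FC over Empty of CLDN1 was 2.10 in NF-YAl and 0.22 in NF-YAs, a difference of 1.88 (edgeR adjusted p = 0.00168), and all 3 NF-YAl libraries were above all 3 NF-YAs libraries. That of DSC2 was 0.38 in NF-YAl and -1.64 in NF-YAs, a difference of 2.02 (edgeR adjusted p = 1.24e-05), again without overlap between the libraries. The 100 tested genes nearest to each gene had a median difference of 0.35 around CLDN1 and 0.26 around DSC2, and the part of these regions was not tested.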

How the results depend on the processing

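The 30 member values had 597 recomputed values, of which 541 kept their side of the threshold, 34 lost the call and 22 gained it, and no call changed sign. Some values near 0 that did not pass changed sign and are counted as kept. An example is DSG2 in NF-YAl, with log2FC from -0.00158 to 0.385. Among the 4 genes that fell in NF-YAl, 2 remained called when only the 2 lines were fitted (JUP and PKP3 were lost), 1 remained with limma on log2(TPM + 1) or log2(TPM + 0.1), and 2 to 4 when 1 library was left out. Fitting only NF-YAs and Empty added PKP3 and DSP to the genes that fell in NF-YAs. That fit called 36.1% of all tested genes in either direction, against 22.6% when the 9 libraries were fitted together. Of the 4 that fell in NF-YAs, 2 passed with limma on unscaled TPM at either pseudocount. On log2(TPM + 1), 0 rose there (EPCAM lost, limma adjusted p = 0.0146) and 2 members with an absolute log2FC above 1 passed. Leaving out 1 library gave 2 to 4 such members in NF-YAs. In the direct comparison, leaving out 1 library gave 1 to 3 higher members, 1 to 3 with an absolute log2FC above 1, and 0 to 1 lower. An adjusted p under 0.05 gave 4 higher and 1 lower. DSP was the 1 lower member there without the filter on low counts, on unscaled TPM at both pseudocounts and with the replicate block. The cause of these changes was not tested, except that unscaled TPM shifted the median log2FC of all genes to 0.22 in NF-YAl and 0.12 in NF-YAs at a pseudocount of 1.

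The deviations of same-lettered libraries from their line means correlated at -0.0652 to 0.253 over 7 pairs (mean 0.0862, against -0.0299 for the 20 pairs of other letters). Only 3 of the 7 were above 0.1 and not every library correlated most with its own letter, so the letters were not taken to pair the libraries. With the replicate block, OCLN in NF-YAl passed (adjusted p = 0.00545) and JUP did not (0.0276), and in NF-YAs 6 members fell in place of 4, PKP3 and DSP being added. The block raised the genes called from 3865 to 5316 in NF-YAs and from 3346 to 4160 in NF-YAl. The letter D marks only NF-YAl D, so the block fits this library exactly and takes it out of the comparisons. Leaving out NF-YAl D without a block gave 5023 called genes in NF-YAs and 4274 in NF-YAl. PKP3 and DSP passed in NF-YAs and JUP was lost in NF-YAl in that fit too. Low counts limit CLDN7, at 4 to 74 over the libraries of all lines, and EPCAM in Empty, at 24 to 25 per library. CLDN7 was not tested when 10 counts were required in every library.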

Other observations

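Adherens junctions, which lie below tight junctions and link cadherins to actin, were covered by a list of 9 adaptor and nectin genes, of which 8 were tested. NECTIN3 rose in both lines, with log2FC of 1.34 ± 0.14 in NF-YAl and 0.67 ± 0.14 in NF-YAs (edgeR adjusted p = 2.99e-05 and 0.00312), from a mean of 23.3 CPM in Empty to 59.1 and 36.98. AFDN, whose product afadin binds nectins to actin, rose in both as well, with log2FC of 0.75 and 0.45. NECTIN1 fell in NF-YAl (log2FC -0.71 ± 0.11) and was lower there than in NF-YAs (log2FC -0.60 ± 0.11), and VCL, which encodes vinculin, fell in NF-YAl (log2FC -0.42 ± 0.10). The catenin genes CTNNB1 and CTNND1 did not pass in any comparison and had means of 293 to 337 and 306 to 339 CPM. CTNNA1, the alpha-catenin gene that PC-3 is known to lack in functional form, was named after its values were seen. Its means were 1.85 CPM for Empty, 1.55 CPM for NF-YAl and 1.09 CPM for NF-YAs.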
